A study of Mus musculus with 8 samples.

Results

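SOX10 sites beside H3K27me3 are places where the transcription factor SOX10 was found on DNA next to chromatin that carries a mark of repression. A consensus region was a stretch covered by overlapping chromatin immunoprecipitation sequencing (ChIP-seq) peaks of both replicates of an antibody, sharing at least 1 bp. Of 4159 SOX10 consensus sites, 4114 lay on chromosomes 1 to 19, and 501 of these overlapped an H3K27me3 consensus region or had one within 5 kb of an edge. That is 12.2% of the sites on these chromosomes. The members were thus chosen by the positions of the SOX10 and H3K27me3 peaks, so their distances to H3K27me3 and their SOX10 and H3K27me3 values are given as a description, without a test. 55 of the 501 overlapped an H3K27me3 region and 446 lay beside one. Chromosome 6 held 99 of them and is described apart from the 402 on the other numbered chromosomes.

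SOX10 is a transcription factor with an HMG box, a domain that binds the minor groove of DNA and bends it. Melanocytes, which come from the neural crest, need it for their specification, survival and pigment genes. H3K27me3, a trimethylated lysine of the tail of histone H3, is written by Polycomb repressive complex 2 and lies over genes that a cell keeps silent, often those of other lineages. H3K27ac, acetylation of the same lysine, marks active promoters and enhancers. One histone tail cannot carry both modifications on the same lysine.

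All samples came from melan-Ink4a-Arf-1, an immortalised melanocyte line from the embryonic skin of mice with the genotype Cdkn2a tm1RDp/tm1RDp, a mutation of the tumour suppressor locus. The cells were grown in medium with fetal bovine serum, the phorbol ester 12-O-tetradecanoylphorbol 13-acetate and cholera toxin, and there was no untreated or other comparison group. SOX10, H3K27ac and H3K27me3 were each profiled in 2 libraries, which the labels' protocols describe as independent experiments on this single line, and chromatin without antibody (input) was the control of the authors' peak calls. Tags kept after removal of duplicates ranged from 6440395 to 8985699 for SOX10, from 44416913 to 45583056 for H3K27ac and from 67060647 to 71987481 for H3K27me3. Positions refer to mouse genome build mm9. Defining melanocyte markers were not checked, because genes were not placed on these positions. With 2 libraries per antibody and no contrast between groups, no test across samples could be made. Values of the 2 libraries are given side by side, and Wilson intervals (95%) cover counting error only.

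Chromosome 6 stood apart in how many of its SOX10 sites had H3K27me3 beside them. Of its 276 SOX10 sites 99 did, 35.9% (30.4 to 41.7%), where the share over the other 18 numbered chromosomes ranged from 5.81% on chromosome 15 to 16.8% on chromosome 9, with a median of 10.2%. Chromosome 6 also had more called H3K27me3 regions, 5995 in the consensus against 761 to 2832 on each of the others. H3K27me3 regions and the 5 kb on either side of them took up 24.2% of the stretch of chromosome 6 that the lists cover and 7.71% of the other chromosomes. The background of the input library under SOX10 sites, recovered from the authors' tag counts and p-values and given as a multiple of the genome-wide level, had a median of 2.22 in both SOX10 replicates on chromosome 6. On the other chromosomes its medians ran from 1.27 to 1.90 in each replicate. Both SOX10 libraries were called against the same input library, so the likeness of their background values is largely built in. H3K27me3 was called without a local background. The part of the input level in the number of sites and of H3K27me3 regions was not tested.

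**Figure D1:**
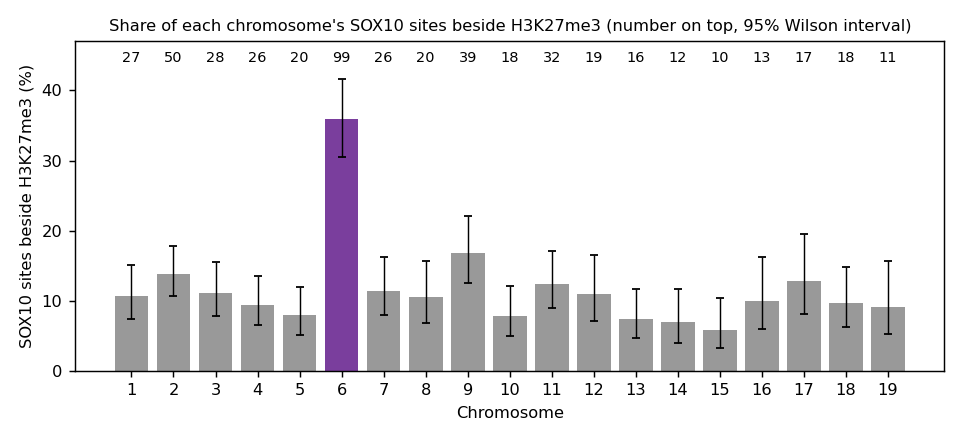
Share of the SOX10 consensus sites of each chromosome (x axis) that overlapped an H3K27me3 consensus region or had one within 5 kb (y axis, percent), with 95% Wilson intervals and the number of such sites on top. Chromosome 6 stands at 35.9%, and the other chromosomes lie between 5.81% and 16.8%.

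SOX10 summits at touching sites mostly lay at the edges and in the gaps of H3K27me3. Inside H3K27me3 regions, which made up 24.8% of the bases inside or within 5 kb outside chromosome 6, fell 12 of the 359 summits there, 3.34%. Of the 55 overlapping sites, 8 lay on sequence where the input exceeded 10 times its genome-wide level in at least 1 replicate, and these are described later. Among the other 47, the summit itself was inside an H3K27me3 consensus region at 6 and outside at 41. The overlap of these 47 sites was shallow, with a median of 243 bp or 24.6% of the site, and only 2 sites lay wholly inside a region. Against single libraries, 82 of the 501 members overlapped an H3K27me3 peak of at least 1 replicate, where 2.21% of all SOX10 sites did, a contrast that chose the members. A peak of H3K27me3 replicate 1 covered the summit at 1 of the 47 sites and a peak of replicate 2 at 6. Summits outside were a median of 330 bp from the edge of the first region, by position, that the site overlapped. At some sites another region was nearer to the summit.

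Many of these gaps were narrow and had H3K27me3 on both flanks. Of the 47 sites, 38 had an H3K27me3 region within 5 kb on the left and on the right of the summit, 80.9%, and at 35 of them no consensus region covered the summit. The stretch between both regions was 326 to 4473 bp long at these 35 sites, with a median of 1854 bp. Among the 446 members that did not overlap H3K27me3, 83 had it on both sides, 18.6%, with stretches of 1492 to 9340 bp and a median of 4466 bp. Over all SOX10 sites on chromosomes 1 to 19, H3K27me3 on both sides was found at 2.97%, with 2.24% outside chromosome 6 and 13% on it. Nothing is read from these shares because the distance chose the members. Bases give another reference. Of the 347 SOX10 summits that lay outside H3K27me3 but within 5 kb of it on the chromosomes other than 6, 82 or 23.6% had it on both sides, where 17.9% of all bases at that distance did. On chromosome 6 it was 36 of 92 summits, 39.1%, against 34.0% of bases.

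The distances of the 446 sites that did not overlap ran from 15 to 4992 bp with a median of 2140 bp, and the nearest region was on the left at 222 and on the right at 224. The nearest regions of the members were 497 different ones. More regions lay within 5 kb, since 119 members had 2 there and 80 had 3 or more. Only 4 regions were the nearest one of more than 1 member, and none of more than 2. When members less than 50 kb apart were linked, 411 stood alone and no group had more than 3, so the members were scattered over the genome and did not fall into a few loci.

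**Figure D2:**
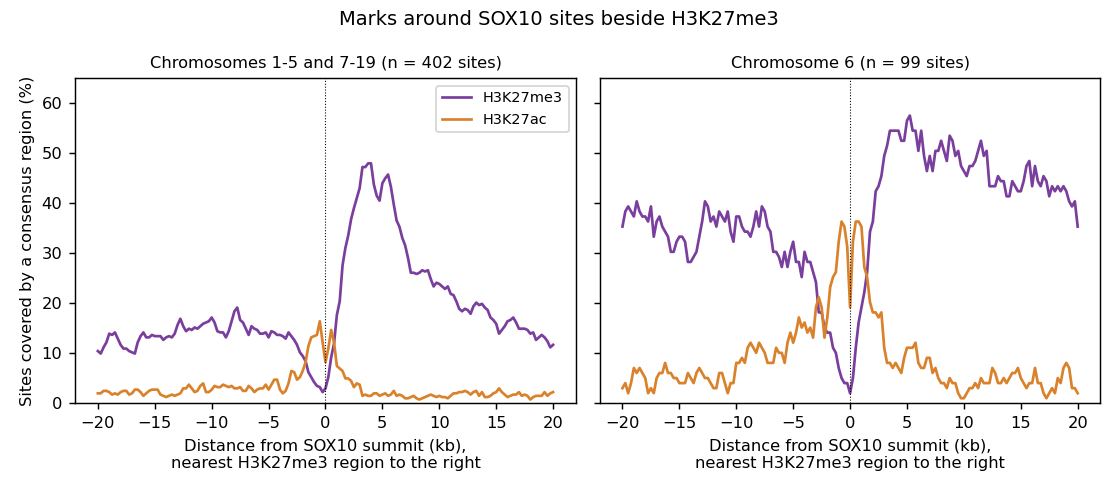
Percent of SOX10 sites beside H3K27me3 that were covered by an H3K27me3 or an H3K27ac consensus region (y axis) at each distance from the SOX10 summit (x axis, kb), with each site turned so that its nearest H3K27me3 region lies to the right. On the chromosomes other than 6, H3K27me3 covered 2.99% of summits and up to 48.0% of positions on the right, and H3K27ac reached 16.4% and 14.7% on the left and right flank.

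The profile around the summit had the shape of a trough in H3K27me3 with a small ridge of H3K27ac in it. The choice of sites builds in much of the trough. Outside chromosome 6, 359 of the 402 had H3K27me3 within 5 kb without touching it, and each site was turned with its nearest region to 1 side. On the chromosomes other than 6, coverage by H3K27me3 rose from 2.99% at the summit to 48.0% at 3750 bp towards the nearest region. It reached 19.2% at 7750 bp on the far side. 8 of the 12 covered summits were those with a high input. H3K27ac covered 8.21% of summits, 14.7% of positions 500 bp towards H3K27me3 and 16.4% of positions 500 bp away from it. Averaged over 5 kb, the far side had H3K27ac at 7.24% of positions and the H3K27me3 side at 4.88%. The turning placed more H3K27me3 on the latter side, and its part in this difference was not tested. On chromosome 6, H3K27me3 covered 2.02% of summits and 57.6% of positions 5250 bp towards the nearest region, and H3K27ac covered 19.2% of summits and 36.4% at its highest on either side.

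H3K27ac was the one mark the choice of sites did not use, and a smaller share of the SOX10 sites beside H3K27me3 overlapped it. These shares were not tested, since the sites of a list are not replicates. Over all SOX10 sites on chromosomes 1 to 19, 53.8% overlapped an H3K27ac consensus region. Of the 501 sites beside H3K27me3, 162 did, 32.3% (28.4 to 36.5%), and of the other 3613, 56.7% (55.1 to 58.3%). Without chromosome 6 it was 108 of 402, 26.9% (22.8 to 31.4%), against 56.0% of the others and 52.9% overall. The share of members was the lower one on all 18 of these chromosomes, with 11.1% to 40.0% of members and 43.5% to 68.4% of the other sites. On chromosome 6 it was 54 of 99, 54.5% (44.8 to 64.0%), against 71.8% of the others and 65.6% overall. Each H3K27ac library alone gave the same order. All peaks of replicate 1 reached 41.9% of members and 63.0% of other sites, and all peaks of replicate 2 reached 42.3% and 65.4%, where all sites together had 60.4% and 62.6%. Outside chromosome 6, the input background under members had medians of 1.48 and 1.49 times the genome-wide level in SOX10 replicates 1 and 2, and under the other sites 1.53 and 1.58. Peaks of H3K27ac replicates 1 and 2 overlapped 14.5% and 15.3% of the 339 members that lacked an H3K27ac consensus region, so "without H3K27ac" means without a region found in both libraries.

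The share with H3K27ac went up with distance from H3K27me3. On the chromosomes other than 6, it was 11.6% (5.07 to 24.5%) at the 43 overlapping sites, 18.8% (11.7 to 28.7%) within 1 kb and 17.4% (10.9 to 26.8%) at 1 to 2 kb. It was 26.8% (17.9 to 38.1%) at 2 to 3 kb, 38.5% (26.5 to 52.0%) at 3 to 4 kb and 48.6% (37.2 to 60.05%) at 4 to 5 kb. The intervals of the first 3 values overlap one another, and the interval at 4 to 5 kb lies above that at 1 to 2 kb. These intervals cover counting error only, and differences between the steps were not tested. Beyond the members, the share was 53.8% at 5 to 10 kb, 60% (273 of 455) at 10 to 20 kb, 62.1% at 20 to 50 kb and 64.8% at 50 to 100 kb. It was 45.7% at sites more than 100 kb from H3K27me3, so the increase did not continue. Both H3K27ac libraries showed the climb, from 13.95% and 11.6% at overlapping sites to 58.6% in each at 4 to 5 kb. The 43 overlapping sites include the 8 with a high input, none of which overlapped H3K27ac. Of the other 35, 5 did. Chromosome 6 had fewer sites per step. There the share was 16.7% (4.70 to 44.8%) of 12 overlapping sites, 40.0% (23.4 to 59.3%) of 25 within 1 kb and 35.3% (17.3 to 58.7%) of 17 at 1 to 2 kb. It was 76.2% (54.9 to 89.4%) of 21 at 2 to 3 kb, 69.2% (42.4 to 87.3%) of 13 at 3 to 4 kb and 11 of 11 at 4 to 5 kb, so the climb was not steady.

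**Figure D3:**
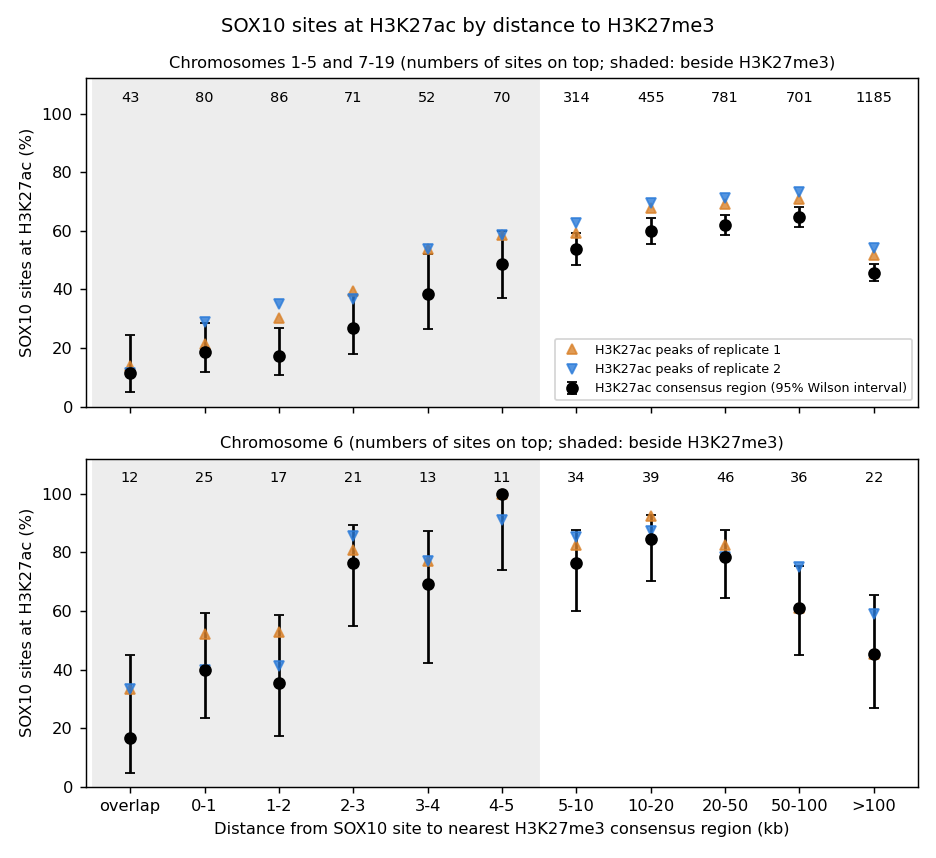
Percent of SOX10 sites that overlapped H3K27ac (y axis) by the distance of the site to the nearest H3K27me3 consensus region (x axis, kb), with the sites beside H3K27me3 shaded. Black points are consensus regions with 95% Wilson intervals, triangles are the peaks of each H3K27ac library alone, and the numbers on top count the sites. Outside chromosome 6 the share went from 11.6% at overlapping sites to 48.6% at 4 to 5 kb and 64.8% at 50 to 100 kb. The overlapping sites there include 8 with a high input, none of them at H3K27ac.

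H3K27ac was also counted over all bases, with or without SOX10. Outside chromosome 6, H3K27ac regions covered 0.298% of bases within 1 kb of H3K27me3, 0.751% at 1 to 2 kb, 1.502% at 4 to 5 kb and 2.55% at 20 to 50 kb. Inside H3K27me3 regions they covered 0.513%. Beyond 100 kb it was 0.402%. Over the whole 5 kb beside H3K27me3 it was 0.849%. Beyond 5 kb it was 1.05%, where 1386 of the 2084 Mb lay beyond 100 kb. On chromosome 6 the order of these pooled values was the reverse, with 3.01% within 5 kb and 1.47% beyond. Of the 111 Mb beyond 5 kb there, 63.2 Mb lay beyond 100 kb and had 0.116%. In steps on chromosome 6, the share rose from 1.48% within 1 kb to 4.77% at 4 to 5 kb. It was 4.23% at 5 to 10 kb, 3.18% at 20 to 50 kb and 2.24% at 50 to 100 kb. SOX10 sites with and without H3K27ac were therefore also counted per Mb of sequence at each distance of the summit. Sites at H3K27ac numbered 0.244 per Mb within 1 kb of H3K27me3, 1.05 per Mb at 4 to 5 kb and 2.34 per Mb at 10 to 20 kb. Sites without H3K27ac had the opposite slope, with 2.51 per Mb at 1 to 2 kb, 2.55 at 2 to 3 kb, 1.54 at 10 to 20 kb and 0.994 at 50 to 100 kb. Over the whole 5 kb, 266 summits without H3K27ac fell on 131 Mb, 2.03 per Mb, where 884 fell on the 697 Mb at 5 to 100 kb, 1.27 per Mb. For summits with H3K27ac it was 0.618 per Mb within 5 kb and 2.01 per Mb at 5 to 100 kb. Within 1 kb the density of sites without H3K27ac was lower again, 1.47 per Mb, and inside H3K27me3 12 summits fell on 43.2 Mb, 0.278 per Mb. On chromosome 6 the sites without H3K27ac had 2.06 per Mb within 5 kb and 0.797 per Mb at 5 to 100 kb. Sites at H3K27ac had 2.35 and 2.56 per Mb there.

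**Figure D4:**
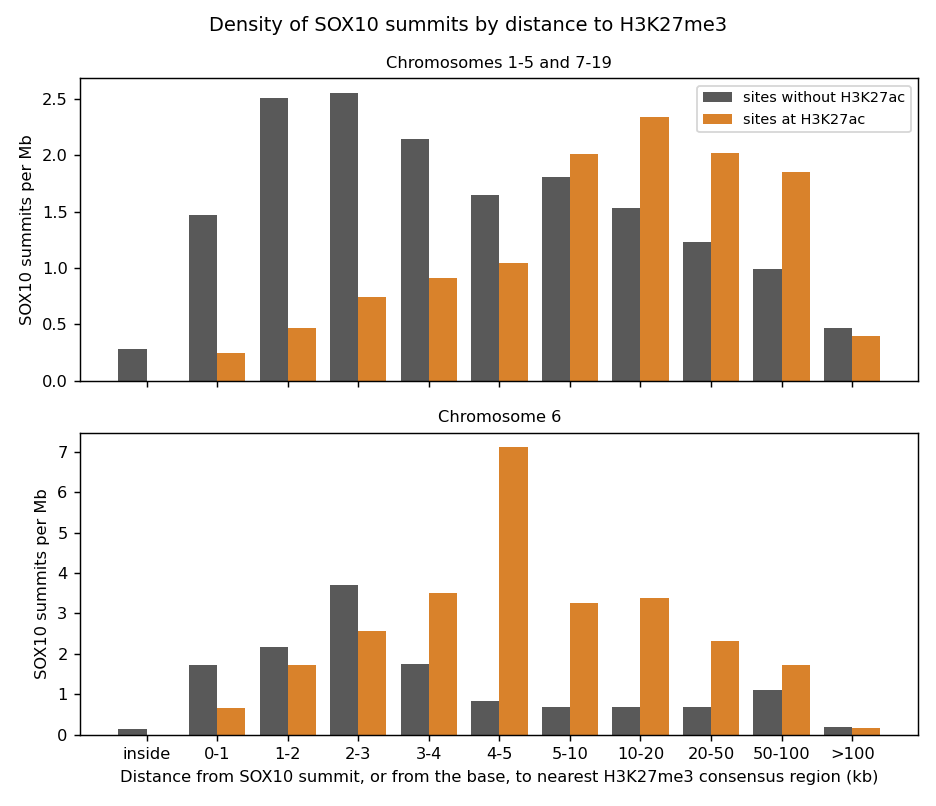
SOX10 summits per Mb (y axis, starting at 0) by distance to the nearest H3K27me3 consensus region (x axis, kb), where grey bars are sites without and orange bars sites with an H3K27ac consensus region. Outside chromosome 6 the grey bars are highest at 1 to 3 kb, with 2.51 and 2.55 per Mb, and the orange bars at 10 to 20 kb, with 2.34 per Mb.

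Having H3K27me3 on both sides went with less H3K27ac. Outside chromosome 6, 8 of the 86 such members overlapped H3K27ac, 9.30% (4.79 to 17.3%), against 100 of the 316 other members, 31.6% (26.8 to 37.0%). These others had H3K27me3 on 1 side of the summit only, over the summit, or within 5 kb of the site's edge but not of its summit. Sites with both flanks also lay nearer to H3K27me3, with a median distance of 451 bp against 2412.5 bp, and the part of that distance was not tested. On chromosome 6 it was 13 of 36, 36.1% (22.5 to 52.4%), against 41 of 63, 65.1% (52.8 to 75.7%). Of the 118 members whose uncovered summit lay between flanking regions, 28 had an H3K27ac region somewhere in that stretch and 90 had none. It was 12 of 82 outside chromosome 6 and 16 of 36 on it. The share over other stretches of like length was not counted.

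The median SOX10 enrichment of members lay close to that of the other sites, and the difference was no larger than the spread between replicates. The authors' fold enrichment is the tags at the summit over the input background. Members had a median fold of 10.8 in replicate 1 and 11.03 in replicate 2, against 10.95 and 11.03 at the other sites. The mean of both medians was 10.925 ± 0.148 (SD, n = 2) at members and 10.99 ± 0.0566 (SD, n = 2) elsewhere. The difference of the medians on the log2 scale was -0.017 in replicate 1 and 0 in replicate 2. Outside chromosome 6 it was -0.00456 and 0.0501. In steps of distance on these chromosomes the median fold stayed between 10.4 and 11.9 in replicate 1 and between 10.4 and 12.1 in replicate 2. The highest folds of members were 32.2 and 47.03 in replicates 1 and 2, against 68.4 and 68.2 at the other sites. Members made up 12.2% of the 4114 sites, and the one with the highest mean log2 fold ranked 23. Nothing is read from these maxima, which come from groups of unlike size. The log2 folds of both SOX10 libraries correlated across members with r = 0.773, as a description over 501 sites that share their libraries. Both folds also rest on the same input library.

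Members without H3K27ac had the higher folds. Outside chromosome 6, the 294 members without it had medians of 11.9 and 12.6 in replicates 1 and 2, and the 108 with it 9.10 and 8.88. The other sites had 11.9 and 11.9 without and 10.2 and 10.4 with H3K27ac. The input background moved with this, with medians of 1.27 and 1.28 times the genome-wide level at members without H3K27ac and 2.49 and 2.53 at those with it. Tags ran the other way, with medians of 20 and 30 without and 34 and 51 with H3K27ac, in sites of 1031.5 and 1294 bp median width.

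The H3K27ac regions found at members were smaller at the median. Outside chromosome 6, the 156 regions at members were 593 bp wide at the median, with median folds of 8.74 and 8.94 in H3K27ac replicates 1 and 2. The 3090 regions at other SOX10 sites had 726 bp and folds of 9.62 and 9.43. Members without an overlap were also further from the next H3K27ac region, with a median of 40893 bp against 27038 bp, and 8.16% of them had one within 1 kb against 17.9%. On chromosome 6 the order was the other way, with a median of 30421 bp for the 45 members without an overlap against 69717.5 bp for the 50 other sites, and 15.6% against 14% had one within 1 kb. The regions at members on chromosome 6 had a median width of 1008.5 bp, and those at other sites 1073 bp.

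The H3K27me3 regions nearest to members were ordinary in size, and those nearest to touching sites were wider at the median. Outside chromosome 6, the 398 regions nearest to a member were 1386.5 bp wide at the median, with median folds of 5.03 and 5.25 in H3K27me3 replicates 1 and 2, where all 24391 regions there had 1325 bp and the same folds. The 42 regions nearest to an overlapping member had a median of 2661 bp and folds of 6.12 and 6.67. Where a site overlapped more than 1 region, only the first by position was taken. The 42 include the regions of the high-input members described later, whose folds were 20.1 or higher. At the 35 overlapping members with an input of at most 10 times, the median width was 2749 bp. The part of the width in whether a region was touched was not tested. On chromosome 6 the 12 regions nearest to an overlapping member were 7626.5 bp wide at the median, where all 5995 had 1637 bp. Of these 12, 5 were over 10 kb wide.

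The site touching H3K27me3 with the highest SOX10 fold, outside chromosome 6 and with an input of at most 10 times, was chr3:36306345-36307194. Its folds were 31.63 and 32.08 in SOX10 replicates 1 and 2, with 27 and 39 tags. Its summit lay 33 bp inside a 3642 bp H3K27me3 region with folds of 6.78 and 6.56, and the next H3K27ac region was 41473 bp away. Next came chr16:35380025-35380940 with folds of 26.36 and 37.10, whose summit was 199 bp outside a region of 1126 bp, and chr18:44913054-44914177 with 22.59 and 28.94, whose summit was 211 bp outside. In the latter pair replicate 2 was the higher one.

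The site chr9:32353686-32354815 was the only one of the 10 highest that lay wholly inside a region. Its summit was 2306 bp from the nearer edge of a 9445 bp H3K27me3 region, and its folds were 15.46 in replicate 1 and 31.65 in replicate 2, the widest spread between replicates among the 10. Another pair framed a single region on chromosome 10. The site chr10:42992775-42993473 (folds 15.82 and 16.04) and the site chr10:42999274-43000241 (17.13 and 20.05) lay at the left and right ends of an H3K27me3 region of 6098 bp, and an 8003 bp region followed on the far side of the former. The other 4 of the 10 were chr17:49732323-49733113, chr16:18549487-18550632, chr5:64813901-64815097 and chr9:61191004-61191694, with folds from 13.18 to 15.46 in replicate 1 and from 16.04 to 19.05 in replicate 2. 9 of the 10 had H3K27me3 on both sides of the summit. No peak of either H3K27ac library overlapped any of the 10, and their next H3K27ac consensus regions were 9715 to 356510 bp away. Among all 43 overlapping members outside chromosome 6 the share was also low, 13.95% and 11.6% by peaks of H3K27ac replicates 1 and 2.

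The highest folds of sites beside H3K27me3 without an overlap were larger. Nothing is read from this, since they come from 359 sites outside chromosome 6 against 35 touching ones. The medians there were 11.1 and 11.4 in SOX10 replicates 1 and 2 without an overlap. At all 43 overlapping sites they were 10.5 and 12.0. The highest site without an overlap outside chromosome 6 was chr1:43771430-43772522, with 30.32 and 47.03. It had 3 H3K27me3 regions within 5 kb and on both sides, the nearest 152 bp away and 4124 bp wide, and the next H3K27ac region was 97397 bp away. It was followed by chr16:45244180-45245801 (32.25 and 34.82), 4136 bp from a region of 786 bp, and chr8:27866397-27867796 (30.26 and 31.08), 4793 bp from a region of 1629 bp. The last was the one site of the 10 highest with an H3K27ac consensus region. The others of the 10 had folds from 22.41 to 30.51 in replicate 1 and from 24.06 to 37.10 in replicate 2, and H3K27me3 on 1 side only. Among them, chr3:19305692-19307003 was the nearest to H3K27me3, 97 bp from a region of 5443 bp, and held 78 and 102 tags.

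On chromosome 6 the touching site with the highest fold was chr6:17159037-17160626, with folds of 24.48 and 23.09. It overlapped 399 bp of an H3K27me3 region of 9841 bp, had H3K27me3 on both sides and carried H3K27ac as well. The next touching site, chr6:126268140-126269343 (15.81 and 12.21), had its summit 301 bp from the edge of an H3K27me3 region of 24463 bp with folds of 10.93 and 8.74. This region was the widest of the members' nearest regions. Of the sites without an overlap there, chr6:72919403-72920563 had folds of 31.62 and 36.08 and overlapped H3K27ac, 305 bp from H3K27me3. The site chr6:125787514-125788930 had folds of 27.68 and 40.37, with the next H3K27ac region 238751 bp away, and chr6:12381998-12383074 had 24.97 and 31.65.

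Of the members' nearest H3K27me3 regions, the 5 widest were 15917 to 24463 bp long, and 4 of them were on chromosome 6. None of the 5 SOX10 sites next to them overlapped an H3K27ac consensus region, though 1 overlapped a peak of H3K27ac replicate 1. The region of 21672 bp had a site at chr6:31554544-31555642 with folds of 9.25 and 10.76. The regions of 17163 and 16442 bp had sites at chr6:52007755-52009605 (7.36 and 4.63, the one with that peak) and chr6:52843804-52845169 (9.71 and 12.31). The latter summit was 26 bp inside its region. The one outside chromosome 6, chr2:127358839-127359933, had the higher folds of 21.66 and 29.48 and lay 470 bp from a region of 15917 bp. It had H3K27me3 on both sides.

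**Figure D5:**
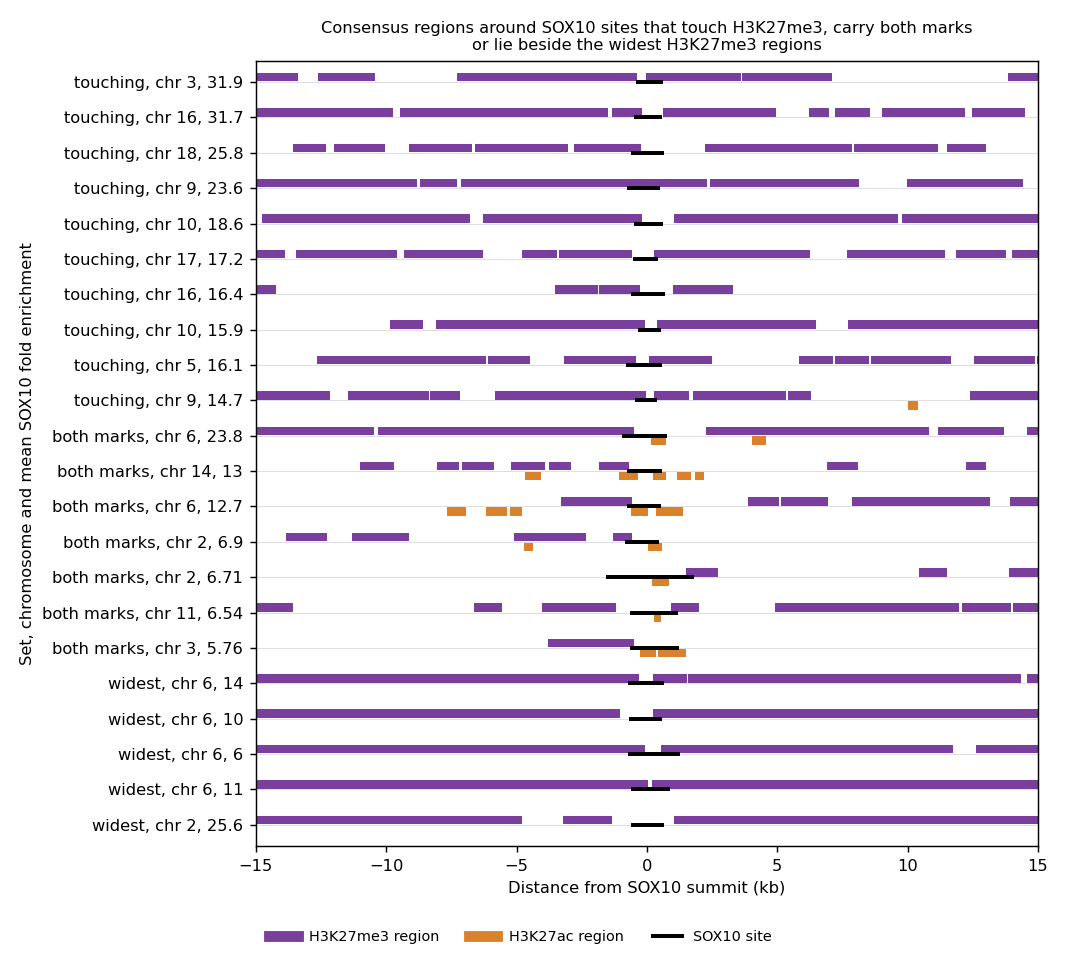
H3K27me3 regions (purple), H3K27ac regions (orange) and SOX10 sites (black) by distance from the SOX10 summit (x axis, kb), 1 row per site. Rows are the 10 touching sites with the highest SOX10 fold outside chromosome 6 and the 7 sites with both marks. The others are the sites beside the 5 widest of the members' nearest H3K27me3 regions. Labels give the set, the chromosome and the mean SOX10 fold of both replicates. Most black bars sit at an edge or across a gap of the purple regions, and one touching site on chromosome 9 lies within a region of 9445 bp.

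Both marks met at 7 sites, among them chr6:17159037-17160626 with the highest fold. The other 6 were chr14:70038636-70039841 (9.71 and 16.35), chr6:101332055-101333194 (9.25 and 16.18), chr2:168426714-168427868 (6.6 and 7.2), chr2:17947771-17950991 (5.63 and 7.79), chr11:85738605-85740300 (8.21 and 4.88) and chr3:30691406-30693144 (6.03 and 5.5). At all 7 the summit lay outside H3K27me3, 487 to 1503 bp from the nearest region. The overlap with H3K27me3 was 25 to 399 bp of the site. Both H3K27ac libraries had a peak at each of the 7. SOX10 tags there ranged from 15 to 73 in replicate 1 and from 41 to 123 in replicate 2. At 5 of the 7, regions of both marks shared no base within the SOX10 site. At the other 2 they did, over all 25 bases of H3K27me3 in chr14:70038636-70039841 and over 9 of the 95 in chr6:101332055-101333194.

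The 8 members with an input over 10 times had another character. All 8 overlapped H3K27me3 with the summit inside, their next H3K27ac regions were at least 28254 bp away, and none was on chromosome 6. Over all sites on chromosomes 1 to 19 such an input was found at 9, 0.219%. Their SOX10 folds ranked from 4101 to 4114 among the 4114 sites by mean log2 fold, at 1.82 to 4.72 in replicate 1 and 2.02 to 3.90 in replicate 2, with 154 to 5018 and 201 to 6636 tags. Their H3K27me3 folds were 22.5 to 72.6 and 20.1 to 73.4, where H3K27me3 regions near members had a median of 5.03 and 5.46. The authors called H3K27me3 without a local background, so its folds are not ratios over the input at the region. The part of the input in these folds was not tested. 3 of the 8 lay close together on chromosome 2, at chr2:98502197-98503364, chr2:98503602-98504441 and chr2:98506204-98507682. 2 lay near the start of chromosome 9, at chr9:3015084-3017766 and chr9:3035523-3036783, and the lowest mean fold was that of chr17:39979541-39985980. Such sites make up 8 of the 14 summits inside H3K27me3.

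Around the limit of 5 kb, the 3 members just inside were chr6:136416453-136417976 at 4992 bp (8.81 and 11.08), chr17:10072034-10073134 at 4983 bp (9.25 and 10.55) and chr10:92783912-92784682 at 4979 bp (16.90 and 19.78), and 2 of them overlapped H3K27ac. The 3 sites just outside were chr13:111642763-111643860 at 5013 bp (11.78 and 16.28), chr5:104836530-104837575 at 5049 bp (9.79 and 12.66) and chr12:72636784-72637411 at 5053 bp (8.32 and 7.66), of which 1 did.

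The number of members depended on the lists, which differed in length. The SOX10 lists of replicates 1 and 2 held 6409 and 9613 peaks, against 4159 consensus sites, so these counts are not shares. With all peaks of SOX10 replicate 2 as sites it was 1180, with all peaks of H3K27me3 replicate 1 or 2 as regions it was 848 and 858, and with only peaks whose -log10(p) was at least 10 for both SOX10 and H3K27me3 it was 86. With all peaks of SOX10 replicate 1 or 2 as sites, 89 and 190 overlapped H3K27me3.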

How the data were processed

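Peak lists of 6 ChIP libraries were used, grouped by the antibody and replicate number in the titles. Per the file headers, the authors called peaks in each library with MACS 1.4.2 at a p cutoff of 1e-05, keeping 1 tag per position, and without local background for H3K27me3. The build is mm9, as the submitters' processing notes state, with an aligner not given in the sources used here. The deposited lists give tag counts, -log10 p multiplied by 10 (cutoff 50), the fold enrichment as the authors' ratio over background, and an FDR in percent, which was not used. For H3K27me3 that background is not the local input. For H3K27ac the headers give a fragment length of 50 and 51 bp, as short as the tags of 51 bp. A damaged column title in 1 deposited list was read by position.

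Consensus regions, distances and Wilson intervals were computed in Python 3.11.15 with scipy 1.17.1. The summit of a site is that of its peak with the higher fold. Distances run between edges. The input background is the Poisson mean at which a peak's tags give its p, over the genome-wide level. Bases were counted between the first and last peak of each chromosome. The steps were tested on simulated data. Members and lists were chosen with earlier results of these data known. Named sites are the 10 touching and 10 other members with the highest mean log2 fold outside chromosome 6, and 3 of each on it. Also named are all with both marks, those with high input and 3 on either side of the limit. The last set is those beside the 5 widest of the members' nearest H3K27me3 regions. No gene or sequence is given, since no mm9 annotation or genome was used here. 2 inputs enter only through the calls.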

Additional observations from a re-analysis of the deposited data

Results flagged for a closer look

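SOX10 peaks that only 1 library found are left out of the consensus, and some of these also lay beside H3K27me3, in shares near the 12.2% of the consensus sites. Of 2180 such peaks of replicate 1 on chromosomes 1 to 19, 250 overlapped an H3K27me3 consensus region or had one within 5 kb, 11.5% (95% Wilson interval 10.2 to 12.9%). Of 5343 of replicate 2, 680 did, 12.7% (11.9 to 13.6%). Their median folds were 8.82 and 8.22, and 22.0% and 26.03% of them overlapped an H3K27ac consensus region, where all such peaks of replicates 1 and 2 had 31.1% and 39.8%.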

How the results depend on the processing

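Of the alternatives, 2 were chosen after seeing the data (joining H3K27ac regions under 1 kb apart, and counting H3K27ac within 1 kb). The share of members with H3K27ac was below that of the other sites under all 16 alternatives, by 14.8 to 35.9 percentage points. It was 20.2% with 2 kb and 42.05% with 10 kb as the limit, 26.9% without chromosome 6, 38.5% with H3K27ac within 1 kb, and 26.7% to 42.3% when 1 library was left out. With 2 kb, 10 kb and the stricter threshold the members numbered 263, 849 and 86, and with 1 library left out 744 to 1180. Overlapping sites numbered 14 by the summit, 12 with the stricter threshold and 60 to 190 with 1 library left out. H3K27me3 on both sides within 2 kb was found at 18.3% of the members of that limit, and at 23.4% to 27.7% with 1 library left out. The log2 fold difference, -0.0086 with an SD of 0.012 between replicates, was 0.019 with 2 kb, -0.029 with the stricter threshold, 0.023 without chromosome 6 and -0.0032 to 0.019 with 1 library left out, so it has no settled sign. The cause was not tested. No paired analysis was possible because no value compares groups of samples. Depth limits the lists: a median member held 25 and 36 SOX10 tags.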

Other observations

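The X chromosome held 43 SOX10 consensus sites and 12 H3K27me3 consensus regions. No site lay within 5 kb of one, which allows a share of up to 6.98% (3 counts of 43, in place of the Wilson interval used elsewhere), and the shortest distance was 175714 bp.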
